A study of Homo sapiens and Mus musculus with 33 samples.

Results

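The 9 genes described here are RAG1, RAG2, DNTT, PTCRA, LEF1, TCF7, NOTCH1, HES1 and DTX1, a list chosen by symbol with earlier results of these data known. All 9 were among the 36601 genes of the human single-cell tables, all 9 title-case orthologs were among the 32285 genes of the mouse tables, and all 9 had a 3′ UTR feature among the 67121 of the Jurkat SLAM-seq tables. Because the list was selected on these data, the tests printed below describe how a difference stands against the spread between libraries and are not independent evidence for it.

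RAG1 and RAG2 together form the recombinase that cuts DNA beside antigen receptor gene segments, and DNTT (terminal transferase) adds untemplated nucleotides to the joints. PTCRA encodes the pre-T cell receptor alpha chain, the invariant partner of a newly rearranged beta chain in thymocytes. LEF1 and TCF7 are HMG-box transcription factors that bind beta-catenin and TLE corepressors, and both stay on in naive T cells. NOTCH1 is the receptor that commits progenitors to the T lineage, HES1 is a repressor it switches on through RBPJ, and DTX1 is an E3 ligase and a further target of the pathway.

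The study measured RNA made during a pulse of 4-thiouridine (4sU), which iodoacetamide (IAA) turns into T-to-C changes in the reads, in single cells (NOTE-seq) and in bulk 3′ end libraries (SLAM-seq). The SLAM-seq libraries came from Jurkat cells, a human T cell leukemia line (clone E6-1 in the labels): 3 treated with 50 nM CPT (camptothecin, which traps topoisomerase I on DNA), 3 with 1 µM ETO (etoposide, which traps topoisomerase II) and 3 labelled control, all of which received 4sU. Single-cell libraries held stimulated Jurkat cells (2, labelled clone E6-2) and unstimulated ones (2, clone E6-1), all with 4sU. Another held Jurkat cells mixed with mouse NIH3T3 fibroblasts without 4sU (1). Of eHAP cells, a near-haploid human line, there were 3: by NOTE-seq, by a methanol protocol with 4sU and IAA, and by standard 10x without 4sU. Libraries labelled K562 (2) both had 4sU, with and without IAA. Mouse lymph node T cells had 5 libraries with 4sU, at 0, 2, 4, 6 and 8 h of stimulation, and 1 without 4sU. The labels name no stimulus, no length of drug or 4sU exposure, no control vehicle and no separate cultures. A SLAM-seq p-value here thus weighs a difference only against how libraries of a group vary, which can be technical variation. In the single-cell test, a term for 2 sets of libraries takes up part of that variation.

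SLAM-seq depth was 19049329 to 40839684 reads per library, and the 10x libraries held 442297 to 80944398 UMIs. The 6 of 9 T cell markers found in the SLAM-seq features summed to 2291 to 2339 CPM (counts per 1000000 of a library) in CPT, 1970 to 2018 in ETO and 2029 to 2109 in control libraries, whereas the erythroid and myeloid lists never exceeded 2.14. Other lists moved with the drugs: 4 fibroblast genes (COL1A1, COL1A2, COL3A1 and SPARC) summed to 48.9 to 59.2 CPM in CPT, 43.9 to 52.3 in ETO and 29.7 to 31.2 in control libraries. The 5 B cell genes summed to 3.39 to 5.32 in CPT, 2.25 to 3.50 in ETO and 2.00 to 2.75 in control libraries, and the part of these 2 lists in the results was not tested. Mitochondrial reads were 5.31 to 6.68% of each CPT library, 2.88 to 3.03% of each ETO library and 1.05 to 1.24% of each control library; their part in the results was not tested beyond a fit that added these reads, which changed no call on the 9 genes. No 2 libraries shared more than 6 cell barcodes. The libraries labelled K562 did not carry the erythroid genes known in that line: HBG1, HBG2 and HBE1 were at 0 in both. The one with IAA held 20 UMIs over 8 erythroid markers and 1625 over 5 myeloid markers, of which CD14 was at 0. It also held 437 UMIs over 9 T cell markers and 413 over 5 B cell markers, and what these cells are was not tested.

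To show what lies upstream of the recombinase genes, of LEF1 and of the Notch target HES1, 300 bases around each listed RefSeq start (build GRCh38.p14) were searched on both strands. The windows ran from 250 before to 50 after the start. Of the 9 genes 8 had an entry, TCF7 with 2 starts, and DTX1 is named only. The outer 5′ ends of LEF1 (chr4:108168932) and TCF7 (chr5:134108218) were not among the listed starts and were not searched. Searched were TGGGAA, the core bound by RBPJ, CTTTGA, the core bound by TCF and LEF factors, CANNTG, the E box, GGGCGG, the GC box, and TATAAA. The windows below carry the E boxes of the RAG genes and the RBPJ cores of HES1 and LEF1, with the match in capitals.

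RAG1, chr11:36510226-36510255, plus strand: caggccaagcccCAGCTGcggacgccactg
RAG2, chr11:36598240-36598269, minus strand: tgttcataagaaCATCTGtaggcacacata
HES1, chr3:194136052-194136081, plus strand: tgaaagttactgTGGGAAagaaagtttggg
HES1, chr3:194136066-194136095, plus strand: ggaaagaaagttTGGGAAgtttcacacgag
LEF1, chr4:108166481-108166510, minus strand: ttgttccacaacTGGGAAaccctctggagg

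Counting from the start, the E box began at -115 in RAG1 and at -21 in RAG2, the RBPJ cores at -84 and -70 in HES1 and the one in LEF1 at -197, where it overlaps an E box that begins at -201. CANNTG was present in 68.7% of all 35116 promoter windows, and TGGGAA in 24.0%. The second TCF7 start also held a TGGGAA, at -163. PTCRA held 4 E boxes and DNTT 3, whereas NOTCH1 held none of these and 4 GC boxes, a motif in 45.0% of promoters. CTTTGA, present in 12.9% of promoters, matched in none of the 9 windows, and TATAAA, present in 11.5%, matched in 1 TCF7 window. A match is a string of letters and does not show binding.

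CPT lowered the mRNA of both recombinase genes. In these bulk libraries fewer cells with an mRNA and less of it per cell cannot be told apart. Their 3′ UTR features (GRCh38) lie at chr11:36576437-36579756 on the plus strand for RAG1 and at chr11:36591943-36592584 on the minus strand for RAG2. RAG1 had 2.14, 2.08 and 2.51 CPM (scaled here by TMM factors) in the CPT libraries, against 19.2, 17.5 and 20.7 in the control libraries, so the groups were far apart. This was 8.56-fold lower with CPT (log2 fold change -3.10 ± 0.16, SE; edgeR quasi-likelihood adjusted p = 6.13e-13). RAG2 had 1.14, 1.15 and 0.695 in CPT and 4.95, 4.58 and 5.88 in control libraries, again without overlap. The fold change was 5.10-fold downward (log2 -2.35 ± 0.26, edgeR adjusted p = 1.94e-07), on 13 to 27 reads per CPT library and 149 to 216 per control library.

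DNTT (chr10:96338225-96338564, plus strand) was not read once in the 3 CPT libraries and had 38, 25 and 40 reads in the 3 control libraries. Taking 3 reads over the CPT group as the floor, which covers counting error only, it was at least 19.6-fold lower with CPT. DNTT passed the filter on low counts only through the control libraries, so a lower level in CPT was the only call possible and is given as a description. PTCRA (chr6:42925683-42925835, plus strand), also on few reads, averaged 0.381 ± 0.05 in CPT and 0.683 ± 0.12 in control libraries (SD, n = 3 each). Each CPT library was below each control library, yet the difference did not pass the test (log2 -0.84 ± 0.67, edgeR adjusted p = 0.322).

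The 2 HMG-box factors went opposite ways with CPT. LEF1 (chr4:108047545-108048751, minus strand) had 220, 201 and 210 CPM in CPT libraries and 662, 686 and 691 in control libraries. It fell by 1.69 ± 0.05 on the log2 scale (edgeR adjusted p = 1.25e-16), and the 2 groups were far apart. TCF7 (chr5:134146205-134148229, plus strand) had 242, 248 and 235 in CPT and 211, 191 and 190 in control libraries. It rose by 0.30 ± 0.06 (edgeR adjusted p = 0.000165), a small change that nonetheless left no overlap between the groups.

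Of the Notch genes, total RNA of the receptor fell and that of the target DTX1 rose with CPT. NOTCH1 (chr9:136494433-136496070, minus strand) had 14.8, 16.0 and 19.3 CPM in CPT and 24.1, 25.7 and 26.1 in control libraries (log2 -0.60 ± 0.11, edgeR adjusted p = 9.08e-05). DTX1 (chr12:113096940-113098028, plus strand) had 30.4, 28.0 and 29.7 in CPT and 19.1, 23.7 and 19.3 in control libraries (log2 0.51 ± 0.10, edgeR adjusted p = 0.000387). HES1 (chr3:194138234-194138732, plus strand) had 3.19, 2.38 and 4.27 in CPT and 3.04, 2.77 and 2.97 in control libraries. Its groups overlapped and it did not pass the test (log2 0.16 ± 0.27, edgeR adjusted p = 0.658).

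In all, 5 of the 9 genes, DNTT with its fixed direction among them, were called lower and 2 higher with CPT, where 24.7% of the 17354 features tested were called lower and 23.0% higher. The median log2 fold change was -0.84 over the 9 genes (PTCRA's value, also with DNTT at its bound) and -0.0025 over all features.

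**Figure D1:**
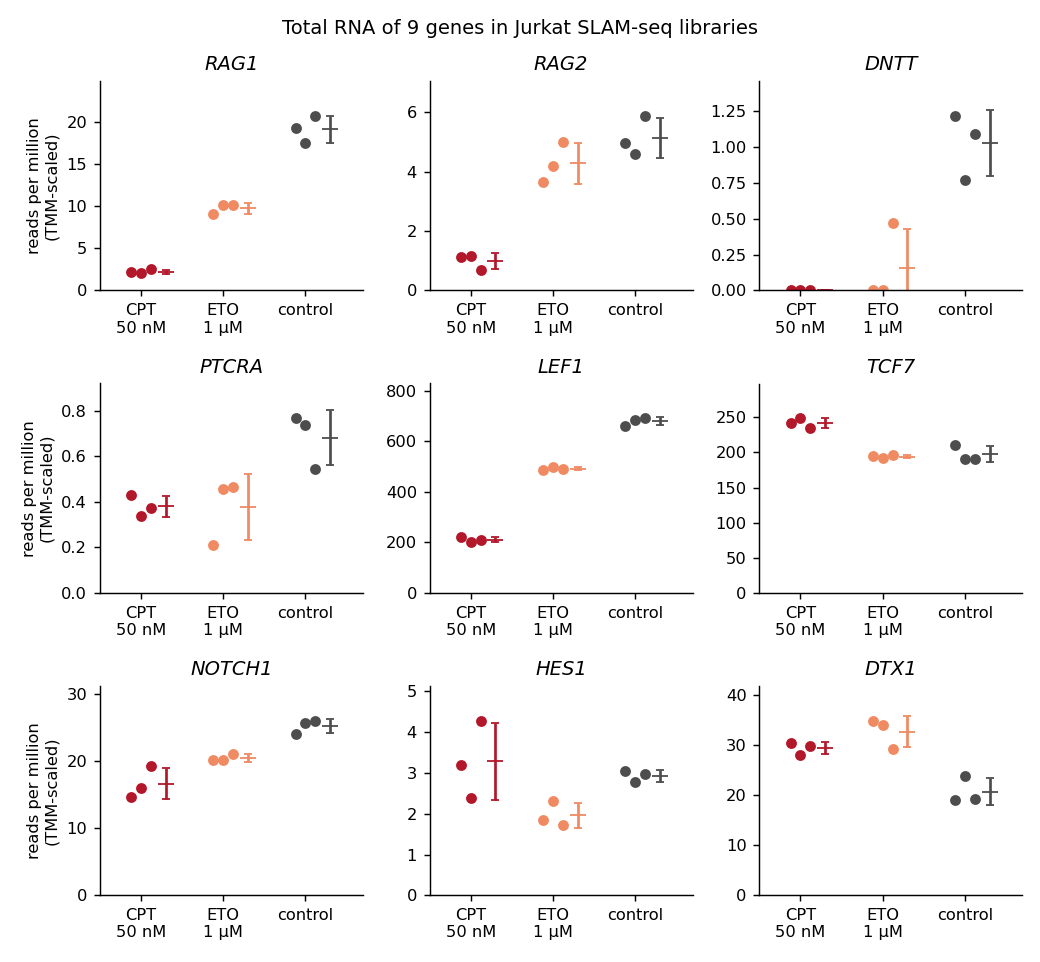
TMM-scaled CPM (y axis, from 0, each panel its own scale) of the 9 genes in each SLAM-seq library of Jurkat cells, with the group mean and SD (n = 3) beside the points. RAG1 sat at 2.08 to 2.51 in CPT, 9.03 to 10.2 in ETO and 17.5 to 20.7 in control libraries, and LEF1 kept the same order of groups, whereas TCF7 was highest in CPT and DTX1 higher in both drug groups than in control.

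ETO lowered RAG1 and LEF1 as well, by less. RAG1 had 9.03, 10.2 and 10.1 CPM in the ETO libraries, against 19.2, 17.5 and 20.7 in control libraries, which was 1.95-fold lower (log2 -0.97 ± 0.13, edgeR adjusted p = 5.15e-06). LEF1 had 488, 498 and 491 in ETO and 662, 686 and 691 in control libraries (log2 -0.47 ± 0.05, edgeR adjusted p = 2.35e-07). Neither gene's groups overlapped. RAG2, at 3.64, 4.20 and 5.01 in ETO and 4.95, 4.58 and 5.88 in control libraries, overlapped between the groups and did not pass the test (log2 -0.26 ± 0.22, edgeR adjusted p = 0.405).

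DTX1 rose with ETO, to 34.8, 33.9 and 29.1 CPM, against 19.1, 23.7 and 19.3 in control libraries (log2 0.66 ± 0.10, edgeR adjusted p = 3.67e-05). NOTCH1 was at 20.2, 20.2 and 21.1 in ETO and 24.1, 25.7 and 26.1 in control libraries (log2 -0.30 ± 0.11, edgeR adjusted p = 0.0308). HES1 averaged 1.96 ± 0.30 in ETO and 2.92 ± 0.14 in control libraries (SD, n = 3 each; edgeR adjusted p = 0.114), TCF7 194 ± 2.6 and 197 ± 12 (adjusted p = 0.793), and PTCRA 0.377 ± 0.15 and 0.683 ± 0.12 (adjusted p = 0.357), so none of these 3 passed. DNTT had 0, 0 and 14 reads in ETO libraries and 38, 25 and 40 in control libraries, and again entered the fit only through the control group (log2 -2.69 ± 1.01, edgeR adjusted p = 0.0447).

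That made 4 of 9 genes, DNTT included, lower and 1 higher with ETO, where 17.1% of all features were called lower and 17.2% higher, and the median log2 fold change was -0.47 over the 9 genes and 0.011 over all features. The call on DNTT did not hold without ETO replicate 1 or 2 or any one control library, nor in DESeq2, with adjusted p-values of 0.0945 to 0.435 there. The call on NOTCH1 did not hold without any one ETO library or without control replicate 2 or 3, with adjusted p-values of 0.0517 to 0.0999.

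The CPT and ETO comparisons share the 3 control libraries, so the drugs were also set against each other directly. RAG1 was 4.38-fold lower in CPT than in ETO libraries (log2 -2.13 ± 0.16, edgeR adjusted p = 1.74e-09). RAG2 was 4.26-fold lower (log2 -2.09 ± 0.27, adjusted p = 3.33e-06) and LEF1 2.34-fold lower (log2 -1.23 ± 0.05, adjusted p = 1.24e-13), again by edgeR. TCF7 was higher in CPT (log2 0.32 ± 0.06, edgeR adjusted p = 0.000161). The doses were 50 nM and 1 µM and the exposure times are not in the labels, so these are differences between 2 sets of libraries and not between drugs at matched strength.

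NOTCH1 was also called lower in CPT than in ETO libraries (log2 -0.30 ± 0.11, edgeR adjusted p = 0.0419). That call was lost in 7 of the 9 fits that left out 1 library (without CPT replicate 1 or 2, any ETO library, or control replicate 2 or 3), with adjusted p-values of 0.0570 to 0.153, and in DESeq2 (0.0737). DTX1 (log2 -0.15 ± 0.10), HES1 (0.73 ± 0.28), PTCRA (-0.01 ± 0.67) and DNTT (0 reads against 14) did not pass, with edgeR adjusted p-values of 0.304, 0.0512, 0.995 and 0.0780. HES1 was called higher in CPT without CPT replicate 2 (log2 0.91, edgeR adjusted p = 0.0177). Of the 9 genes 4 were lower and 1 higher in CPT, where 16.5% of all features were lower and 13.7% higher, with medians of -0.30 for the 9 and 0.013 for all.

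Reads counted as converted (T-to-C) stand for RNA made during the pulse. For these genes no library had fewer than 2 conversions per converted read (RAG1 in CPT replicate 3 had 2 on 1 read). Reads with 1 conversion thus seem not to be counted. Converted reads were 1.27 to 1.30% of all reads in CPT, 2.21 to 2.22% in ETO and 1.98 to 2.08% in control libraries. CPT libraries held 234233 to 294359 converted reads in all and control libraries 675933 to 764751, so raw counts overstate the gap. RAG1 had 6, 0 and 1 converted reads in CPT libraries and 68, 39 and 75 in control libraries. LEF1 had 113, 70 and 63 in CPT and 429, 419 and 450 in control libraries. As TMM-scaled CPM of converted reads, RAG1 had 24.4, 0 and 4.45 in CPT and 102, 57.6 and 99.2 in control libraries. LEF1 had 459, 251 and 280 in CPT and 646, 619 and 595 in control libraries on that scale. Scaled to the converted reads of each library, RAG1 new RNA was lower with CPT by a log2 fold change of -3.17 ± 0.72 (edgeR adjusted p = 0.00844) and LEF1 new RNA by -0.91 ± 0.18 (edgeR adjusted p = 0.00304).

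These were 2 of the 6 genes with enough converted reads to test, where 2.76% of 9279 features were called lower. RAG2, with 3, 5 and 0 converted reads in CPT and 10, 5 and 27 in control libraries, was below the filter, and DNTT and PTCRA had none in any library. Scaled to all reads instead, the median of all features was -0.89 on the log2 scale, with RAG1 at -3.97 and LEF1 at -1.73 and both called. That scaling also turned the calls over all features to 70 higher and 3241 lower, where scaling to converted reads gave 310 higher and 256 lower. The call on RAG1 did not hold without control replicate 1 (edgeR adjusted p = 0.0526). NOTCH1 new RNA leaned the other way from its total RNA with CPT and did not pass (log2 1.15 ± 0.48, edgeR adjusted p = 0.163). It was called higher without CPT replicate 1 (edgeR adjusted p = 0.0325) and stood at 0.34 when scaled to all reads.

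With ETO, RAG1 had 15, 63 and 61 converted reads, against 68, 39 and 75 in control libraries, and LEF1 298, 539 and 395, against 429, 419 and 450. The groups overlapped for both genes. None of the 6 genes tested was called in edgeR (0 at an unadjusted p under 0.05) or in DESeq2 (0), where 1.89% of features were called in either direction. With only the ETO and control libraries in the fit, DTX1 was called higher (edgeR adjusted p = 0.0399). It had 11, 33 and 16 converted reads with ETO and 6, 6 and 2 in control. DTX1 passed the filter on low counts there only through the ETO libraries, so higher was the only call possible and is given as a description.

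Between the drugs, RAG1 new RNA was lower in CPT than in ETO (log2 -2.78 ± 0.73, edgeR adjusted p = 0.0484), as was LEF1 new RNA (-0.87 ± 0.18, adjusted p = 0.0120), where 0.981% of features were called lower. The RAG1 call failed in 8 of the 9 fits that left out 1 library (all but CPT replicate 1), with edgeR adjusted p-values of 0.0538 to 0.196, and the LEF1 call failed without ETO replicate 2 (0.0745) or 3 (0.0593). Neither was called with the 2 drug groups alone in the fit. With library sizes from all reads, the median of all features was -0.93, RAG1 stood at -3.64 and LEF1 at -1.75, and 13 features were called higher and 3487 lower, where scaling to converted reads gave 84 and 91.

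Whether new RNA changed more than old RNA was tested as a ratio within each library. None of the 6 genes was called in any of the 3 comparisons, where 0.981% of features were called for CPT against control, 0.636% for ETO against control and 0.108% for CPT against ETO. At an unadjusted p under 0.05 the counts were 2, 1 and 0 of 6. LEF1 had the smallest adjusted p, with a ratio higher in CPT than in control by 0.71 ± 0.18 on the log2 scale (edgeR adjusted p = 0.0751). It turned to -0.07 when library sizes came from all reads, a scaling that gave 16 features higher and 2122 lower for CPT against control, where scaling to converted reads gave 68 and 23. The NOTCH1 ratio with CPT was 1.64 ± 0.53 (edgeR adjusted p = 0.152), and was called higher without CPT replicate 1 (edgeR adjusted p = 0.0488). The ratio was not fitted with DESeq2.

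The share of a gene's own reads counted as converted was compared among 7 of the 9 genes within the control libraries. This readout compares no treatment, and DNTT and PTCRA had no converted read. RAG1 had 11.3, 6.84 and 9.84% converted reads there (mean 9.33 ± 2.27, SD, n = 3) and RAG2 averaged 7.44 ± 4.65%. HES1 averaged 14.5 ± 2.93%, on 90 to 109 reads per library. NOTCH1 followed at 3.32 ± 0.25%, LEF1 at 1.91 ± 0.15%, DTX1 at 0.689 ± 0.37% and TCF7 at 0.621 ± 0.18%. Libraries overlapped between HES1 and RAG1, between RAG1 and RAG2, between RAG2 and NOTCH1, and between DTX1 and TCF7. Each NOTCH1 library was above each LEF1 library, and each LEF1 library was above each DTX1 and each TCF7 library.

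Among the 9464 features that had 100 reads or more in every control library, whose median share was 2.60%, RAG1 stood at percentile 93.4 and RAG2 at percentile 88.8. NOTCH1 stood at percentile 60.0, LEF1 at 38.2, DTX1 at 12.5 and TCF7 at 11.0. Counted as conversions per covered T, RAG1 was at percentile 90.4, RAG2 at 90.2, LEF1 at 30.4 and TCF7 at 11.8. This count allows only in part for a 3′ UTR rich or poor in T, since reads with 1 conversion seem not to enter it. LEF1 and TCF7, both abundant HMG-box mRNAs, thus had a lower converted share than the RAG genes by either count. In control replicate 1, TCF7 had 142519 covered Ts on 6586 reads, LEF1 672983 on 20718 and RAG1 22187 on 602. TCF7 thus had the fewest Ts per read of these, and the part of T content in its low share was not tested.

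In the drug-treated libraries the shares went different ways. Over all reads the share was 1.27 to 1.30% in CPT, 2.21 to 2.22% in ETO and 1.98 to 2.08% in control libraries. HES1 had 1.49, 1.79 and 7.50% converted reads in CPT libraries, on 56 to 80 reads each, and 15.8, 11.1 and 16.5% in control libraries. Its new-to-old ratio was not called with CPT (log2 -1.43 ± 1.06, edgeR adjusted p = 0.579). In ETO libraries the HES1 share ranged over 1.92 to 23.1%. LEF1 had 1.84 ± 0.52% converted reads in CPT, 2.66 ± 0.09% in ETO and 1.91 ± 0.15% in control libraries. The LEF1 ratio was not called with ETO (log2 0.42 ± 0.17, edgeR adjusted p = 0.459). NOTCH1 had 6.14 ± 3.13% in CPT, 5.96 ± 1.32% in ETO and 3.32 ± 0.25% in control libraries. RAG1 ranged over 0 to 13.3% in CPT, on 45 to 49 reads per library, so its share there was not measurable at this depth.

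**Figure D2:**
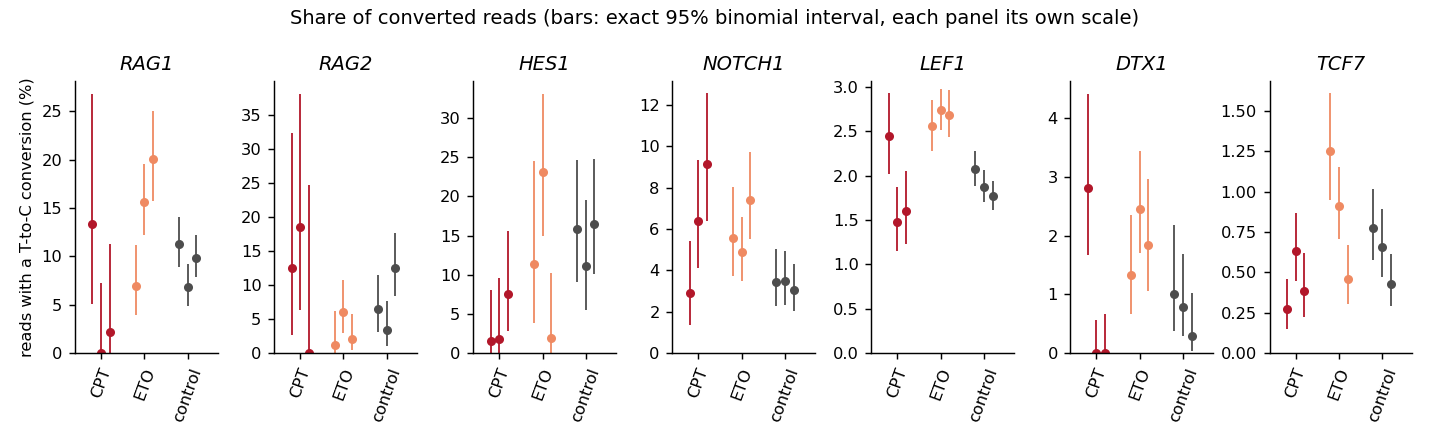
Share of each gene's reads counted as converted (T-to-C) in each SLAM-seq library (y axis, percent, each panel its own scale), with exact 95% binomial intervals that cover counting error only. In control libraries RAG1, RAG2 and HES1 averaged 9.33, 7.44 and 14.5%, against 0.621% for TCF7; the CPT points of RAG1 and RAG2 rest on 13 to 49 reads each and have wide intervals.

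RAG1 was lower in the stimulated than in the unstimulated Jurkat library in both sets of single-cell libraries. Set 1 carries the replicate label 1 and set 2 is the pair of labels without a number; the stimulated cells are labelled as another clone than the unstimulated ones, so clone and stimulation cannot be told apart. CD69, an early activation marker, was at 1189 and 747 CPM in stimulated sets 1 and 2, against 40.5 and 6.51 in the unstimulated ones. That difference has the same limit. RAG1 had 15.7 and 7.86 CPM in stimulated sets 1 and 2, and 31.6 and 16.1 in unstimulated sets 1 and 2. The ratio was 0.497 in set 1 and 0.489 in set 2, with counting intervals of 0.452 to 0.546 and 0.384 to 0.626.

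RAG2 had 19.3 and 7.53 in stimulated sets 1 and 2 and 32.8 and 9.27 in unstimulated sets 1 and 2. Its ratio was 0.589 in set 1, with an interval of 0.539 to 0.643, and 0.811 in set 2, with an interval of 0.606 to 1.10 that includes 1. On sums of UMIs per library with the set as a term, RAG1 fell by 1.00 ± 0.16 on the log2 scale (edgeR adjusted p = 1.52e-08) and RAG2 by 0.60 ± 0.16 (edgeR adjusted p = 0.00400). These were 2 of 9 genes lower and 0 higher, where 5.17% of 19099 genes were lower and 5.61% higher, and 3 of the 9 had an unadjusted p under 0.05.

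The fit with the set term leaves 1 residual degree of freedom on 4 libraries, so its p-values lean on the spread of other genes. Without the set term, edgeR called 0 of the 19099 genes, and 0 of the 9 had an unadjusted p under 0.05. The set term was chosen with that absence of calls known. DESeq2 with the set term called RAG1 alone of the 9, and any fit that left out 1 of the 4 libraries, which allows no set term, called none of the 9; RAG2 then ranged from -1.18 to 0.31.

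The other 7 genes did not pass. LEF1 had 1046 and 398 CPM in stimulated sets 1 and 2 and 1344 and 437 in unstimulated sets 1 and 2 (log2 -0.23 ± 0.14, edgeR adjusted p = 0.393). TCF7 had 173 and 208 in stimulated sets 1 and 2 and 164 and 202 in unstimulated sets 1 and 2 (log2 0.09 ± 0.13, edgeR adjusted p = 0.820), with ratios of 1.06 in set 1 and 1.03 in set 2. NOTCH1 (-0.05 ± 0.14), DTX1 (-0.23 ± 0.13) and HES1 (-0.71 ± 0.28) had edgeR adjusted p-values of 0.910, 0.304 and 0.0969. DNTT, with 26 and 3 UMIs in stimulated sets 1 and 2 and 24 and 0 in unstimulated sets 1 and 2, and PTCRA, with 33 and 27 against 35 and 4, were near the limit of detection.

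**Figure D3:**
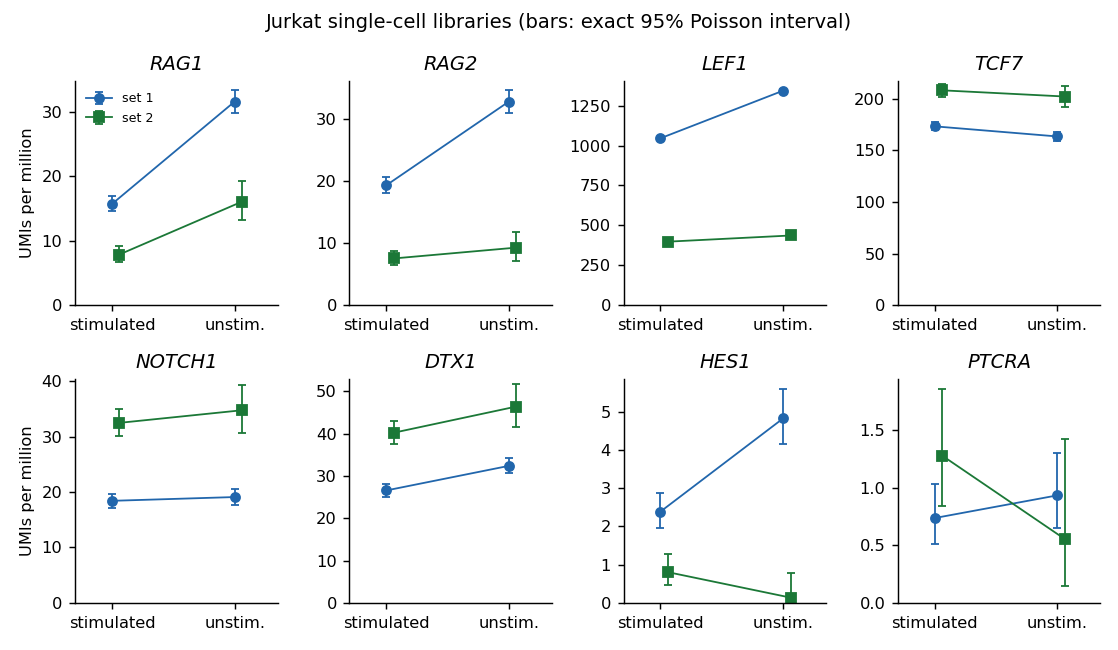
CPM (y axis, from 0, each panel its own scale) of 8 of the genes in stimulated and unstimulated Jurkat single-cell libraries, joined within set 1 (circles) and set 2 (squares), with exact 95% Poisson intervals that cover counting error only. RAG1 was lower in the stimulated library in both sets (15.7 against 31.6 and 7.86 against 16.1), whereas the lines of HES1 and PTCRA run opposite ways in the 2 sets.

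In set 1, more barcodes held both RAG1 and RAG2 UMIs than the product of the separate shares gives. With each barcode thinned to 5000 UMIs, 6.60% of 2182 barcodes of stimulated set 1 held RAG1, 7.93% held RAG2 and 21 held both, against 11.4 from the product of the shares. In unstimulated set 1, 13.2% of 1760 barcodes held RAG1, 11.5% held RAG2 and 51 held both, against 26.6 from the product. In set 2 the counts were 4 against 2.22 in stimulated and 3 against 0.971 in unstimulated cells, too few to read. The barcodes with RAG1 were also the deeper ones, with a median of 21132 UMIs against 16088 for the others in unstimulated set 1 before thinning, and part of that gap was left after it (19577 against 17843 original UMIs). How much of the joint count depth accounts for was not tested.

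Across human lines, 5 of the genes marked the Jurkat libraries. RAG1, RAG2, LEF1, TCF7 and DTX1 were higher in each of the 5 Jurkat libraries than in each of the 5 others, where 6.66% of the 19339 genes with at least 100 UMIs were. RAG1 had 7.86 to 31.6 CPM in Jurkat libraries, against 0.0371 to 0.442 in eHAP and 0.979 in the library labelled K562 with IAA. The library labelled K562 without IAA held 49 barcodes and no RAG1 UMI, which allows up to 6.78 CPM by the floor of 3 UMIs and 8.34 by the exact 95% Poisson interval, a limit above the lowest Jurkat level; its 1 RAG2 UMI has an upper limit of 12.6 CPM, above the lowest Jurkat RAG2 level as well. The RAG1 level of Jurkat cells in the mixed library was 13.9, within the range of the other 4. The count of 5 rests on that library: with its barcodes assigned to a species at 99% of UMIs instead of 90%, only 7714 human UMIs were left in it and LEF1 alone met the condition.

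LEF1 had 398 to 1344 CPM in Jurkat libraries, against 2.06 to 7.61 in eHAP and 2.26 and 8.01 in the libraries labelled K562 without and with IAA. TCF7 had 64.1 to 208 in Jurkat, against 4.65 to 33.6 in eHAP and 4.52 and 2.14 in the libraries labelled K562 without and with IAA. DTX1 had 15.6 to 46.4 in Jurkat, against 0.259 to 1.30 in eHAP and 2.26 and 0.712 in the libraries labelled K562 without and with IAA. RAG2 had 7.53 to 32.8 in Jurkat, against at most 0.0715 in eHAP and 2.26 (1 UMI) and 0.356 in the same libraries labelled K562. With barcodes thinned to 3000 UMIs, RAG1 was found in 2.35 to 8.14% of barcodes in the Jurkat libraries and in 0.0332 to 0.230% in eHAP, a level at which free RNA cannot be told apart from expression.

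NOTCH1 and HES1 did not follow this order. NOTCH1 had 15.6 to 34.7 CPM in Jurkat libraries, 2.52 to 20.0 in eHAP, and 34.1 and 61.0 in the libraries labelled K562 with and without IAA. HES1 was higher in eHAP, at 7.19, 8.45 and 16.2, than in any Jurkat library, where it reached 4.83 at most. DNTT stayed at or under 0.866 in each Jurkat library and PTCRA at or under 1.28, whereas PTCRA had 1.51 in the library labelled K562 with IAA, so neither gene separated the lines.

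**Figure D4:**
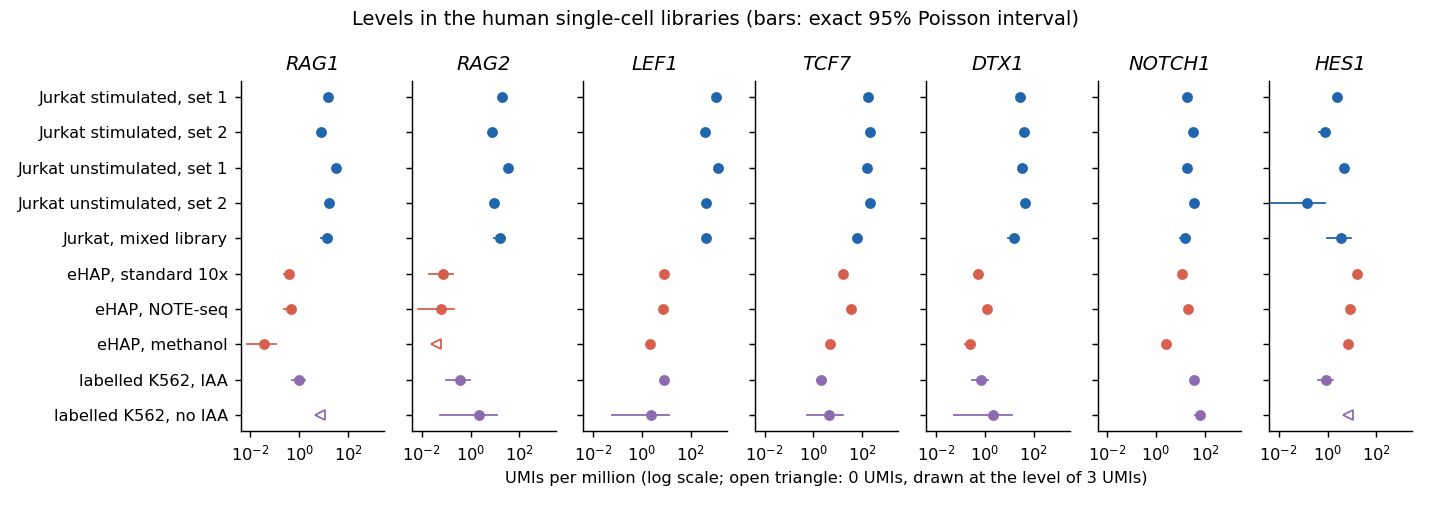
CPM (x axis, log scale) of 7 of the genes in the 10 human single-cell libraries (rows), with exact 95% Poisson intervals; open triangles stand for 0 UMIs, drawn at the level of 3 UMIs. RAG1, RAG2, LEF1, TCF7 and DTX1 lie farther right in the Jurkat rows than in the others, NOTCH1 does not, and HES1 is highest in the eHAP rows (7.19 to 16.2).

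In mouse lymph node T cells, with 1 library per time and therefore no replicate check, Lef1 and Tcf7 were already far lower 2 h after the start of stimulation. Lef1 had 1157, 211, 70.8, 50.3 and 35.2 CPM at 0, 2, 4, 6 and 8 h, from 846, 160, 62, 64 and 25 UMIs. Its ratio to 0 h was 0.182 at 2 h and 0.0304 at 8 h, which is 32.9-fold lower with a counting interval of 22.1 to 51.1. Tcf7 had 350, 103, 26.3, 18.1 and 32.4 CPM at these times. Its ratio to 0 h was 0.293 at 2 h, 0.0750 at 4 h, 0.0517 at 6 h and 0.0925 at 8 h. For both genes the steps to 2 h and to 4 h exceeded counting error and the later ones did not.

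A level at least 4-fold lower than at 0 h was seen in 4.61% of the genes with at least 100 UMIs at 2 h, 11.4% at 4 h, 11.7% at 6 h and 14.6% at 8 h. Lef1 was past that fold at each time and Tcf7 from 4 h on. Lef1 ranked 35th lowest of 1517 genes at 2 h and 20th of 1547 at 8 h, Tcf7 91st and 84th. In the library without 4sU, whose labels give no time, Lef1 had 1251 and Tcf7 515 CPM, against 1157 and 350 at 0 h with 4sU.

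Notch1 took another course, with 21.9, 58.0, 34.3, 16.5 and 12.7 CPM at 0, 2, 4, 6 and 8 h. The 2 h library was 2.65 times the 0 h library, with a counting interval of 1.47 to 5.03, on 44 and 16 UMIs. Dtx1 had 14, 11, 2, 3 and 0 UMIs at the same times. Rag1, Rag2 and Hes1 had no UMI in any of the 6 libraries, Ptcra 0 or 1 and Dntt 0 to 4, so these 5 could not be followed. All 9 T cell markers were detected in each library, at 3980 CPM in sum at 0 h and 4267 at 8 h, and the B cell list had 1 UMI at each of these times.

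**Figure D5:**
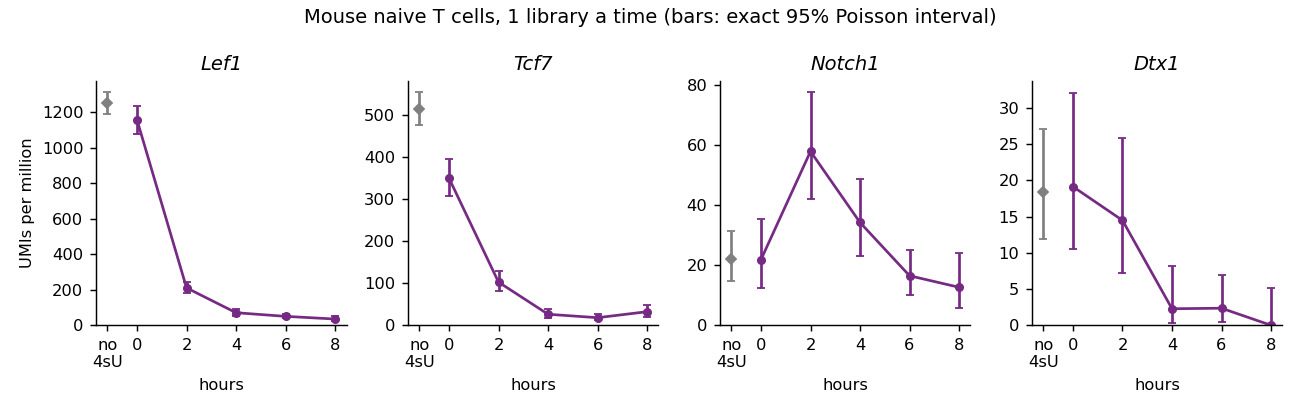
CPM (y axis, from 0, each panel its own scale) of Lef1, Tcf7, Notch1 and Dtx1 in mouse lymph node T cells at 0, 2, 4, 6 and 8 h of stimulation (1 library per time) and in the library without 4sU (grey), with exact 95% Poisson intervals that cover counting error only. Lef1 and Tcf7 are at 70.8 and 26.3 by 4 h, and Notch1 is highest, at 58.0, at 2 h.

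The partners of these genes were read from lists chosen with results known, and rose or fell refers to an edgeR adjusted p under 0.05. On stimulation stands for stimulated against unstimulated Jurkat libraries, which also differ in the labelled clone. Of the V(D)J joining genes, which repair the breaks that RAG makes, 6 of 11 tested fell and 1 rose with CPT, where 24.7% of all features fell and 23.0% rose. XRCC5, the Ku80 subunit, changed by -0.68 ± 0.05, PRKDC, the DNA-dependent kinase, by -0.80 ± 0.07 and LIG4, the ligase, by -0.71 ± 0.14, whereas PAXX, a Ku-binding scaffold, changed by 0.59 ± 0.08 (log2 ± SE). With ETO 5 of 11 fell and 1 rose, where 17.1% of all features fell and 17.2% rose; HMGB2 (-0.41 ± 0.07), a RAG cofactor, was among those lower. On stimulation 1 of 13 fell, ATM (-0.44 ± 0.13), the break-sensing kinase, a share near the 5.17% of all genes.

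Of the genes beside or upstream of the RAG locus, 5 of 8 tested fell and 1 rose with CPT, where 24.7% of all features fell and 23.0% rose. IFTAP, which neighbours RAG2, had 2.65 ± 0.94 CPM in CPT, 9.15 ± 1.27 in ETO and 9.54 ± 0.51 in control libraries (SD, n = 3 each; log2 with CPT -1.84 ± 0.21). RUNX1 (-0.60 ± 0.05) and IKZF1 (-0.60 ± 0.06), lymphoid transcription factors, were lower with CPT. FOXO1, an activator of RAG transcription in lymphoid cells, was higher with CPT (1.05 ± 0.12) and with ETO (0.60 ± 0.12), and lower on stimulation (-0.41 ± 0.13). With ETO 3 of 8 rose, among them SATB1 (0.77 ± 0.06), a chromatin organizer of thymocytes, and 1 fell, where 17.2% of all features rose and 17.1% fell. On stimulation 4 of 9 fell and 0 rose, where 5.17% of all genes fell and 5.61% rose, RUNX1 (-0.77 ± 0.15) and IKZF1 (-0.74 ± 0.14) among them.

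Of the immature T cell genes, 14 of 24 tested fell and 2 rose with CPT, where 24.7% of all features fell and 23.0% rose. The median log2 fold change was -0.54, and that of all features -0.0025. CD1A, a lipid-presenting molecule of cortical thymocytes, had 23.0 ± 0.69 CPM in CPT and 77.4 ± 7.0 in control libraries (SD, n = 3 each). IGLL1, a surrogate light chain, had 4.91 ± 0.82 in CPT and 18.1 ± 0.79 in control libraries, and ADA (-1.09 ± 0.05) and CD1D (-1.35 ± 0.11) were lower as well. With ETO 8 of 24 fell, MAL (-1.82 ± 0.19) among them, and 4 rose, CD8A (1.23 ± 0.22) among them, where 17.1% of all features fell and 17.2%, about the same share, rose. The median was -0.12, against 0.011 for all features. On stimulation 6 of 28 fell and 1 rose, where 5.17% of all genes fell and 5.61% rose, and MYB (-0.83 ± 0.14), a progenitor transcription factor, was among those lower.

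Of the Notch ligands, receptors and processing genes, 11 of 21 tested fell and 6 rose with CPT, where 24.7% of all features fell and 23.0% rose, and 4 fell and 1 rose with ETO, where 17.1% fell and 17.2% rose. NOTCH3 had 4.33 ± 0.99 CPM in CPT, 4.63 ± 0.66 in ETO and 11.0 ± 2.4 in control libraries (SD, n = 3 each), and NOTCH2 19.3 ± 3.2, 22.9 ± 1.2 and 35.0 ± 2.4 in the same groups. Of the nuclear Notch genes 4 of 14 fell and 3 rose with CPT, both near the shares over all features, and 5 fell and 2 rose with ETO. RBPJ, the DNA-binding partner of cleaved Notch, was lower in both (-0.57 ± 0.06 with CPT and -0.40 ± 0.06 with ETO), whereas the repressor HES4 was higher in both (1.08 ± 0.09 and 0.69 ± 0.09). None of the 21 or 12 genes tested from these lists was called on stimulation (edgeR, adjusted p 0.05), where 5.17% of all genes fell and 5.61% rose. At these shares, a lack of calls in lists this short says little about them.

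Among TCF and LEF partners, 3 of 15 fell and 5 rose with CPT, where 24.7% of all features fell and 23.0% rose, and 6 fell and 2 rose with ETO, where 17.1% fell and 17.2% rose. The 3 lower with CPT and the 2 higher with ETO are under the shares over all features. With CPT, GSK3B (-0.67 ± 0.07) and APC (-0.84 ± 0.14), both of the complex that degrades beta-catenin, were lower. TLE5, a truncated member of the TLE corepressor family, was higher with CPT (0.29 ± 0.06). With ETO, CTNNB1, which encodes beta-catenin itself, was lower (-0.45 ± 0.06). On stimulation 2 of 16 rose and 2 fell, where 5.61% of all genes rose and 5.17% fell, with NKD1, a Wnt feedback inhibitor, at 1.60 ± 0.47.

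In the mouse time course, with 1 library a time, several genes of these lists were far from their 0 h level. Satb1 had 57 UMIs at 8 h and 873 at 0 h, Ets1 30 and 399, and Il7r, the interleukin 7 receptor of resting T cells, 1 and 235. Cd5, a brake on receptor signalling, was higher, with 227 UMIs at 8 h and 34 at 0 h, as was Runx1, with 305 UMIs at 2 h and 57 at 0 h.

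Over the 9 SLAM-seq libraries, the features whose log2 level followed RAG1 most closely were IARS1 (Pearson r = 0.996), LEF1 (0.995) and ENDOD1 (0.994) of 17354. LEF1 was followed most closely by HSPD1 (0.997), RAG1 (0.995) and NPM1 (0.995), and NOTCH1 by CELF2 (0.985), DNASE2 (0.985) and PCBD2 (0.981). These values mainly follow the order of the 3 groups, whose libraries form separate clusters, and are given as a description. The sizes differ where the order is shared: with CPT, IARS1 changed by -0.88 ± 0.06 and ENDOD1 by -1.35 ± 0.07 on the log2 scale, against -3.10 ± 0.16 for RAG1.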

How the data were processed

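Counts were used as deposited by the authors. The SLAM-seq tables hold, per 3′ UTR line, the read counts and how many of the reads were counted as converted (T-to-C; slamdunk 0.4.3, GENCODE V33, GRCh38, per the submitters' processing notes). The single-cell matrices hold UMI counts made with cellranger 7.1.0 or 7.2.0, per the file headers. Overlapping UTR lines were taken as 1 feature and named from RefSeq genes ending within 1000 bp, which named 24113 genes and 89.7% of reads; mitochondrial features were left out of the fits. The 9 genes and the pathway lists were chosen with earlier results of these data known. All 9 passed the low-count filter in total RNA (DNTT only through the control libraries) and in the single-cell sums, and 6 passed it in new RNA.

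Groups came from the labels. Fits used edgeR 4.0.16 (filterByExpr, TMM, quasi-likelihood, Benjamini-Hochberg threshold 0.05, R 4.3.3) across all features, with all 9 SLAM-seq libraries in 1 fit, and DESeq2 1.42.0 as an alternative. SLAM-seq levels are TMM-scaled CPM, and standard errors are the fold change over the root of F. UMI counts were summed per library with the set as a term, since deviations of the 2 libraries of a set from their group means correlated at r = 0.865. This term was chosen with earlier results known, namely that 0 genes were called without it. All deposited barcodes were used and no doublet caller was run. Barcodes of the mixed library were human where at least 90% of UMIs were. Intervals are exact 95% Poisson or binomial ones (scipy 1.17.1) and cover counting error only.

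Named from each pathway list were up to 4 genes with the smallest p past the threshold, and, between single libraries, those with the largest ratio and at least 100 UMIs. The fits were also run on simulated counts. Those held no difference between sets, so they did not try the set term and are not used as evidence here. Alternatives were DESeq2, no filter, 2 groups alone, a replicate block, other library sizes, single UTR lines, barcode and species filters, and leaving out each library. SLAM-seq tables of mouse cells were not used here because no names were paired with their lines. One further marker list is not reported here.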

Additional observations from a re-analysis of the deposited data

Results flagged for a closer look

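In the single-cell Jurkat libraries, the ratios of 2 genes lay on opposite sides of 1 in the 2 sets, and neither difference between sets was tested. The PTCRA ratio of stimulated over unstimulated CPM was 0.789 in set 1 (33 and 35 UMIs) and 2.31 in set 2 (27 and 4 UMIs), with counting intervals of 0.475 to 1.31 and 0.804 to 9.08 that both include 1. The HES1 ratio was 0.495 in set 1 (107 and 181 UMIs) and 5.81 in set 2 (17 and 1 UMIs); the set 2 ratio rests on 1 UMI in the unstimulated library and has a counting interval of 0.911 to 243, which includes 1.

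Mouse reads of 3 of the genes stood above the limit that a count of 0 allows in the 291 NIH3T3 fibroblast barcodes of the mixed library, which no comparison used. Lef1 had 18 UMIs, Ptcra 6 and Notch1 6.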

How the results depend on the processing

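Counts of called genes given here are of the 9. With only 2 groups in the fit, the new RNA counts were 1 for ETO against control (DTX1, with its direction fixed by the filter) and 0 for CPT against ETO. Without the filter on low counts 1 gene (LEF1) was called in the ratio of CPT to control, and with library sizes from all reads 1 (LEF1) in that of CPT to ETO. With a replicate block, the SLAM-seq total RNA counts were 7, 5 and 5 for CPT against control, ETO against control and CPT against ETO, as without it, and new RNA for CPT against ETO had 1; the replicate numbers did not pair these libraries (same-number correlations of -0.04 to 0.01). For stimulation, fits with no replicate block called 0 and DESeq2 1. With species assigned at 99%, which left 7714 of 1154683 human UMIs in the mixed library, 1 gene (LEF1) was higher in each Jurkat library. Over all features, calls in new RNA were 566 for CPT against control (DESeq2 1180, 2 groups alone 334, sizes from all reads 3311), 175 for ETO against control (489 in DESeq2, 921 with 2 groups alone) and 175 for CPT against ETO (600 in DESeq2, 53 with 2 groups alone, 3500 with sizes from all reads). Ratio calls were 91, 59 and 10 in the 3 comparisons, 216, 137 and 66 without the filter, and 2138, 37 and 2796 with sizes from all reads. On stimulation 2058 genes were called, 628 in DESeq2, 0 without the set term and 0 to 40 without 1 library.

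Directions turned for PTCRA between CPT and ETO (0.0086 in DESeq2 and 0.013 with the replicate block), and with library sizes from all reads for new RNA of TCF7 (-0.22 for CPT against control and -0.67 against ETO), NOTCH1 (-0.21, CPT against ETO) and LEF1 (0.018, ETO against control) and for the ratios of LEF1 (-0.065 for CPT against control and -0.56 against ETO) and TCF7 (-0.51, CPT against control). DNTT on stimulation turned to 0.60 in DESeq2 and 0.042 with a barcode filter. Causes were not tested.

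Leaving out 1 library, counts ranged from 3 to 5 for ETO total RNA, from 4 to 5 for CPT against ETO total RNA, from 1 to 3 for CPT new RNA, from 0 to 2 for CPT against ETO new RNA, from 0 to 1 for the CPT ratio and from 0 to 0 for stimulation. Ranges that crossed 0 were, in total RNA, HES1 for CPT (-0.083 to 0.34), TCF7 for ETO (-0.055 to 0.022) and PTCRA for CPT against ETO (-0.28 to 0.16). In new RNA they were DTX1 for CPT (-5.02 to 2.40) and, for CPT against ETO, TCF7 (-0.25 to 0.52), HES1 (-1.64 to 0.99) and DTX1 (-7.04 to 0.37). In the ratio they were RAG1 (-2.52 to 0.42), TCF7 (-0.15 to 0.49) and DTX1 (-10.1 to 1.66) for CPT, HES1 for ETO (-1.48 to 0.22), and TCF7 (-0.53 to 0.19), HES1 (-2.09 to 0.030) and DTX1 (-11.5 to 0.25) for CPT against ETO. On stimulation they were RAG2 (-1.18 to 0.31), DNTT (-1.16 to 6.19), PTCRA (-0.18 to 0.98), LEF1 (-0.86 to 0.50), TCF7 (-0.26 to 0.46), NOTCH1 (-0.76 to 0.69), HES1 (-1.44 to 3.27) and DTX1 (-0.76 to 0.30), with reversed values of 0.43 for DNTT, 0.43 for NOTCH1 and 0.21 for DTX1 among them. The bound on DNTT with CPT was 12.3 to 22.1. Adding mitochondrial features, and leaving out the libraries labelled K562, were chosen after the data were seen and changed no call. The set term for stimulation was also chosen with earlier results known. New RNA of RAG2, DNTT and PTCRA could not be tested at this depth.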
